A study of Homo sapiens with 2 samples.

Results

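Mitochondria translate the few respiratory chain subunits that their own DNA encodes with a machinery whose proteins are all made from nuclear genes. Synthetases load amino acids onto the mitochondrial tRNAs, with further enzymes for some of them, and dedicated factors then start the chain, extend it, release it and recycle the ribosome. The transcription factor NRF-1 recognises a GC-rich palindrome and is known for switching on nuclear genes whose products serve the mitochondrion. AATF, a cofactor of transcription, was examined in the study as a partner of NRF-1. The members described here were 31 named genes of this machinery among 19820 protein-coding genes, listed by name under a rule that uses no measured value, with earlier results of these data known. They comprised 16 mitochondrial tRNA synthetases, 4 genes for further steps of tRNA charging, 2 initiation factors, 4 elongation factors and 5 genes for termination, recycling and rescue of ribosomes.

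NRF-1 was mapped by ChIP-seq in U251 cells, an established glioblastoma line, transiently transfected with siControl, the control siRNA, or with siAATF, a single siRNA that targets AATF. The series design text names U138, another glioblastoma line, and the label of each sample, which names U251, was followed. The deposited data were 1 peak list per condition, of 18014 peaks in siControl and 18454 in siAATF. There was therefore no replicate, no test between conditions was possible, and every difference between the lists is a difference between 2 samples, for which pooling of libraries was not described. The depth of the libraries was not part of the lists, and peak lists do not show how far AATF was depleted. A promoter was taken as 1 kb on either side of any protein-coding transcript start, and where a gene had several promoter peaks the one with the highest fold enrichment over the local background was used. Since fold enrichment and −log10 q are set against the background of each library, peaks were compared between lists by percentile rank, where 100 is the strongest and 0 the weakest peak of its own list by fold enrichment.

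The sequences at issue are matches to the NRF-1 core, the palindrome GCGCATGCGC, which is GCGCA, called an arm here, followed by its own reverse complement. With up to 1 mismatch, 12 such sites lay in the promoter peaks of 9 members, and the same 12 were covered in both lists. They are shown because 9 of the 11 members with the most significant siControl peaks carried them. Each is printed 5′ to 3′ on the strand of its gene from the GRCh37 (hg19) sequence with 10 flanking bases on either side, and capitals mark the 10 bases aligned to the core. The substitution gives the base of the core, the position counted from 1 at the 5′ end of those 10 bases, and the base of the site.
MARS2, exact match, chr2:198570056-198570085, plus strand: cgacccggctGCGCATGCGCctctcacacg
MARS2, T6G, chr2:198569950-198569979, plus strand: cgtgcggacgGCGCAGGCGCgggcggggcg
IARS2, A5G, chr1:220267448-220267477, plus strand: cgctcccggaGCGCGTGCGCcctcttactc
PARS2, T6A, chr1:55230174-55230203, minus strand: cttgctcgagGCGCAAGCGCgctggcccgg
SARS2, A5C, chr19:39421084-39421113, minus strand: gatcgtgagtGCGCCTGCGCcggccggggg
SARS2, G9C, chr19:39421167-39421196, minus strand: gagcggttctGCGCATGCCCagaagaggcc
YARS2, C2G, chr12:32908894-32908923, minus strand: taaccgtctcGGGCATGCGCagaaaaacac
MTFMT, A5C, chr15:65321968-65321997, minus strand: ccgccccgatGCGCCTGCGCagggccggcc
MTIF3, A5C, chr13:28024155-28024184, minus strand: caggcgaaggGCGCCTGCGCaggacatgct
GUF1, T6C, chr4:44680661-44680690, plus strand: ggctgggggtGCGCACGCGCtctcgcgcca
MTRFR, G1T, chr12:123717909-123717938, plus strand: cttcagtttcTCGCATGCGCagtgagtaaa
MTRFR, A5G, chr12:123717971-123718000, plus strand: tcggagtacgGCGCGTGCGCagatcaggga

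Of the 11 sites with 1 mismatch, 8 differed from the core at position 5 or 6, the centre of the palindrome. By the canonical transcript, 6 sites lay upstream of the start, 2 in the 5′ untranslated region, 2 in coding exons and 2 in introns. The exact match of MARS2 was centred at −23 bp from its start, negative distances being upstream, and the farthest site, that of MTIF3, lay at 531 bp in an intron. Within 150 bp of the canonical start were 8 of the 12 sites, and 8 were within 100 bp of the midpoint of the siControl peak.

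The first question was which of these promoters carried NRF-1. A promoter peak was present for 28 of 31 members in siControl (90.3%, exact 95% interval 74.2 to 98.0), beside 61.0% of all coding genes. In siAATF the count was again 28 of 31, beside 60.6% of coding genes. Peaks in both lists were found for 27 members, where the share of coding genes was 59.4%. With a −log10 q of at least 5, 22 members kept a siControl peak and 23 a siAATF peak, beside 51.4% of coding genes in siControl and 51.4% in siAATF. The intervals cover counting error only, since genes are not replicates of a condition.

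The members' peaks stood high in each list by fold enrichment. The median rank of the 28 siControl peaks was 78.6, beside 63.4 for all coding genes with a promoter peak, and in siAATF it was 81.7 beside 64.4. A rank of 75 or more was reached by 19 of 28 members in siControl, beside 34.8% of coding genes with a peak, and by 17 of 28 in siAATF, beside 35.6%. Ranked by −log10 q instead, the difference was smaller, with medians of 68.5 for members and 65 for coding genes in siControl, and 72.0 and 66.1 in siAATF.

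In siControl the members fell into a weak and a strong range with nothing between them. There were 6 members (AARS2, QRSL1, GATB, MTIF2, TSFM and GFM2) with a −log10 q between 1.84 and 3.45, a fold enrichment between 3.68 and 4.62 and a rank of at most 30.3. The other 22 had a −log10 q between 10.2 and 73.5, a fold enrichment between 6.16 and 10.5 and a rank of at least 55.0. The weak peaks were also narrow, from 241 to 456 bp, whereas the strong ones measured 401 to 1090 bp. In siAATF 5 of these 6 members again lay under a −log10 q of 5, between 2.29 and 4.17, and AARS2 had no peak. The gap was much smaller in that list. Its other 23 members began at 5.17 (GFM1), with TARS2 at 7.67 and EARS2 at 9.05. Their lowest rank was 42.5, beside a highest rank of 37.8 among the weak 5. For scale, 10184 of the 12099 coding genes with a siControl promoter peak stood at 5 or above, so weak peaks were not peculiar to members.

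**Figure D1:**
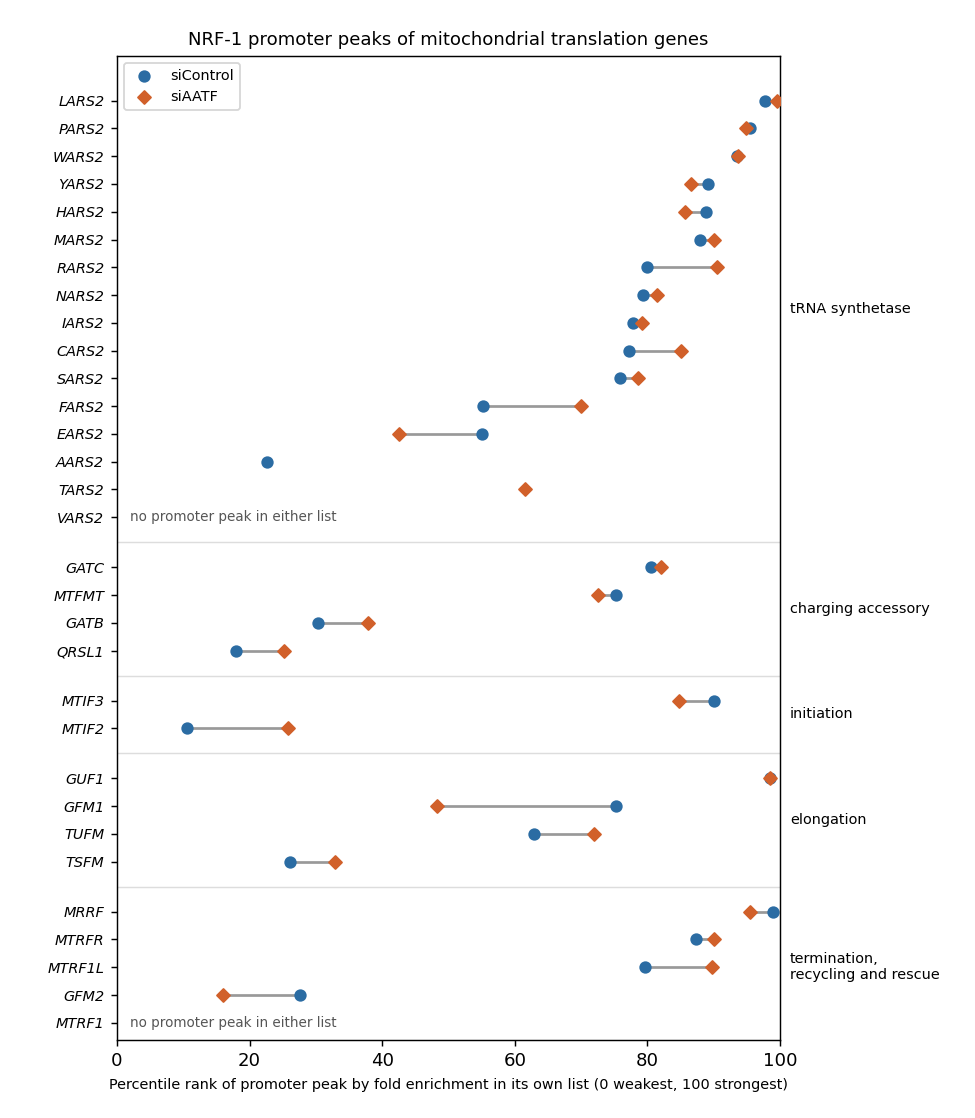
Percentile rank of the promoter peak of each member by fold enrichment in its own list (horizontal axis, 0 to 100), with siControl as circles and siAATF as diamonds joined by a line, grouped by role. In each list 11 of the 14 synthetases with a peak lie at 75 or more, GFM1 has the longest line, and VARS2 and MTRF1 have no promoter peak.

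The tRNA synthetases couple an amino acid to its tRNA, and each is named for the amino acid it loads. In siControl 14 of the 16 had a promoter peak, with a median rank of 79.7, and in siAATF 14 of 16 with a median rank of 85.3. LARS2, the leucine enzyme, had the strongest synthetase peak in both lists, with a rank of 97.8 in siControl (chr3:45429662-45430206) and a fold enrichment of 10.3 and a rank of 99.6 in siAATF (chr3:45429701-45430247). Its peak was short, at 545 and 547 bp, and its −log10 q was only 24.0 and 26.2. PARS2, for proline, ranked 95.5 in siControl (chr1:55229790-55230591, −log10 q 42.1) and 94.9 in siAATF (chr1:55229754-55230606, −log10 q 44). WARS2, for tryptophan, ranked 93.5 (chr1:119682946-119683798, −log10 q 55.1) and 93.7 (chr1:119682847-119683781, −log10 q 52.9). For these enzymes the order of the lists differed by less than 2 points.

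MARS2, for methionine, was the only member whose peak held the exact core. Its peak had the highest −log10 q of all members in siControl, 73.5 (chr2:198569631-198570618, rank 88.0), and a value of 65.9 in siAATF (chr2:198569590-198570576, rank 90.1). YARS2, HARS2, NARS2, IARS2, CARS2, SARS2 and RARS2 ranked between 75.9 and 89.1 in siControl and between 78.6 and 90.5 in siAATF. FARS2, for phenylalanine, ranked 55.2 in siControl and 70.0 in siAATF, and EARS2, for glutamate, 55.0 and 42.5. Both of these peaks were wide, at 1055 and 1090 bp in siControl, with midpoints at −276 and −327 bp from the start, in the same order.

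AARS2 and TARS2 had a promoter peak in 1 list each. AARS2, the alanine enzyme, had a weak siControl peak at chr6:44280774-44281185, with a fold enrichment of 4.24, a −log10 q of 2.83 and a rank of 22.6, and the nearest siAATF peak was 15.2 kb from its start. Coding genes with a promoter peak in siControl only were 1.62% of all, or 321 genes, and 89 of them ranked as high as AARS2 or higher, AARS2 included. TARS2, the threonine enzyme, had a siAATF peak at chr1:150459619-150460001, with a fold enrichment of 6.30, a −log10 q of 7.67 and a rank of 61.5, and the nearest siControl peak was 27.8 kb away. A promoter peak in siAATF only was found for 1.17% of coding genes, or 232 genes, whose median rank was 14.7. Only 2 of those 232 genes, TARS2 included, ranked as high as TARS2. No replicate was there to show whether either peak would be called again.

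VARS2, the valine enzyme, had no promoter peak, and its promoter holds the exact core, centred at −19 bp from the canonical start. The site is printed because it matches that of MARS2 in full.
VARS2, exact match, chr6:30881982-30882011, plus strand: gccagctgctGCGCATGCGCcggccggggc
The nearest peak on chromosome 6 was 2496 kb from the VARS2 start in both lists. VARS2 lay in a stretch of 5.03 Mb, from 28351558 to 33378156, that held no peak in either list and the starts of 177 coding genes. No other stretch between neighbouring peaks held as many coding genes, the next fullest holding 51. Of the 355 coding genes elsewhere with the exact core within 250 bp of the canonical start, 92.7% carried a promoter peak under siControl and 92.1% under siAATF. The stretch spans the major histocompatibility complex, for which hg19 carries alternative haplotype contigs, and the lists held 16 (siControl) and 18 (siAATF) peaks on chromosome 6 haplotype contigs. The part of those contigs in the missing peaks was not tested.

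Charging needs further enzymes for 2 tRNAs. MTFMT adds the formyl group to the initiator methionyl-tRNA, and QRSL1, GATB and GATC are the subunits of the amidotransferase that turns misloaded glutamyl-tRNA into glutaminyl-tRNA. The peak of MTFMT was long and highly significant, with a −log10 q of 72.1 and a rank of 75.3 in siControl (chr15:65321380-65322447) and of 63.4 and 72.5 in siAATF (chr15:65321374-65322472). The amidotransferase subunits were unequal. GATC ranked 80.6 in siControl and 82.1 in siAATF, with a −log10 q of 18.5 and 18.3. GATB ranked 30.3 and 37.8, with a −log10 q of 3.45 and 4.17. QRSL1, the catalytic subunit, ranked 18.0 at chr6:107077367-107077672 in siControl and 25.2 at chr6:107077348-107077833 in siAATF, with a −log10 q of 2.40 and 2.84.

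The initiation factors also lay at opposite ends. MTIF2 brings the formylated initiator tRNA to the ribosome, and its peak was the weakest of all members in siControl, with a fold enrichment of 3.68, a −log10 q of 1.84 and a rank of 10.5 (chr2:55496276-55496557). In siAATF it had a fold enrichment of 4.30, a −log10 q of 2.91 and a rank of 25.8 (chr2:55496275-55496548). MTIF3, which helps to separate the ribosomal subunits and to place the initiator tRNA, ranked 90.0 in siControl and 84.7 in siAATF, with a −log10 q of 59.8 and 54.8.

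Among the elongation factors, GUF1 had the strongest peak. GUF1 encodes a mitochondrial homologue of the bacterial factor EF4, and its peak had a fold enrichment of 10.3 and a rank of 98.5 in siControl (chr4:44680231-44681051) and of 9.63 and 98.5 in siAATF (chr4:44680222-44681049). TUFM, which delivers loaded tRNAs to the ribosome, ranked 62.9 (chr16:28857341-28858137) and 71.9 (chr16:28857410-28858185). TSFM, which recharges TUFM with GTP, ranked 26.1 (chr12:58176425-58176880) and 32.9 (chr12:58176347-58176731). GFM1, the translocase, showed the largest difference between the lists of all members. Its peak had a fold enrichment of 7.64, a −log10 q of 10.2 and a rank of 75.2 in siControl (chr3:158362220-158362620), and a fold enrichment of 5.48, a −log10 q of 5.17 and a rank of 48.2 in siAATF (chr3:158362069-158362570).

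Of the genes for termination, recycling and rescue, 4 of 5 had a peak in both lists. MRRF, the ribosome recycling factor, had the highest rank of all members in siControl, 98.9, with a fold enrichment of 10.5 and a −log10 q of 56.2 (chr9:125026767-125027481). In siAATF it ranked 95.5, with a fold enrichment of 9.0 and a −log10 q of 46.4 (chr9:125026706-125027554). GFM2, which splits the ribosome together with MRRF, had a weak peak in each list, of rank 27.6 at chr5:74062958-74063198 in siControl and of rank 16.0 at chr5:74062809-74063442 in siAATF. MTRFR, which rescues stalled ribosomes, ranked 87.3 and 90.1, and the release factor MTRF1L ranked 79.7 and 89.8. MTRF1, the release factor related to MTRF1L, had no promoter peak in either list, and the nearest peak was 47.3 kb from its start in both.

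The second question was whether AATF depletion altered the place of these promoters in the list. Over the 27 members with a peak in both lists, the rank in siAATF minus that in siControl had a median of 1.77 points, with 17 members higher and 10 lower, beside a median of 0.156 points over the 11778 coding genes with a peak in both, of which 6021 were higher and 5757 lower. The median size of the change, without its sign, was 3.39 points for members and 5.12 for those coding genes. Members ranked higher in siControl, and the comparison was not matched for rank. Over coding genes with the core in their siControl peak, of median siControl rank 79.8, the size was 3.13 points. It was 6.12 points over those with a peak and no core, of median rank 56.3. A rank lower by more than 20 points in siAATF was seen for 1 of 27 members, GFM1 at −27.0 points, beside 2.90% of coding genes. A rank higher by more than 20 points was seen for 0 of 27, beside 3.65% of coding genes. Both shares are near the background. Ranked by −log10 q, GFM1 was lower by less than 20 points, at −16.7. The next largest changes were 15.3 points for MTIF2, 14.9 for FARS2, −12.5 for EARS2 and −11.5 for GFM2. Without replicates none of these changes has an error.

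**Figure D2:**
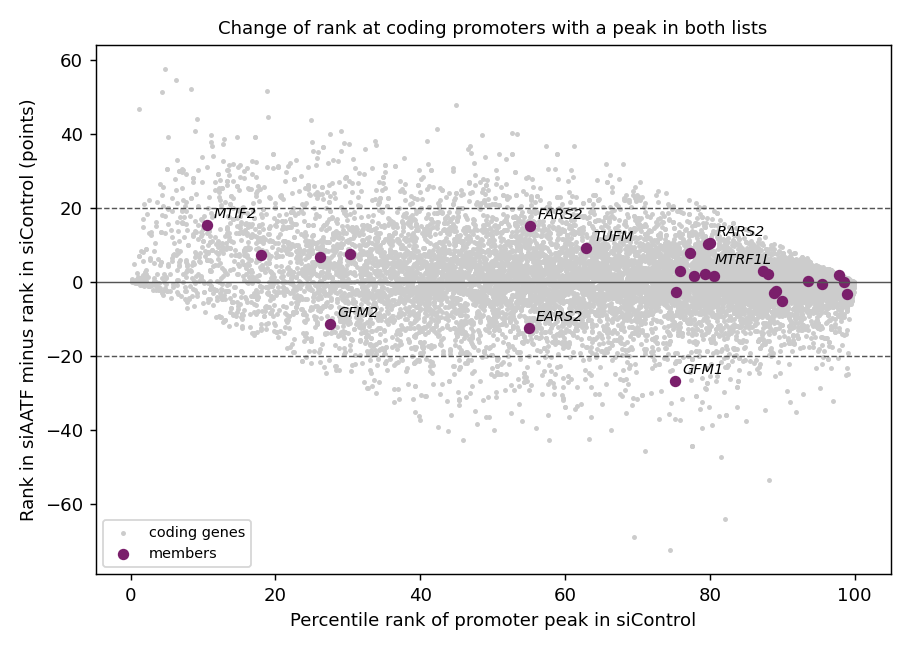
Rank in siAATF minus rank in siControl, in points (vertical axis), against the rank in siControl (horizontal axis), for coding genes with a promoter peak in both lists (grey) and the 27 members among them (purple), with dashed lines at 20 points either way. GFM1, at −27.0 points, is the only member beyond the lines, and those above rank 85 in siControl lie between −5.33 and 2.82 points.

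Where both lists had a peak, the peaks overlapped in all 27 pairs. The shared stretch made up 96.8% of the siControl peak at the median and 67.3% at the lowest, in TSFM. Overlap was not computed over all coding genes, so these values have no background beside them. The siControl peak spanned the canonical start in 27 of 28 members, the exception being GFM2, whose siControl peak stopped 0.016 kb short of it. In siAATF all 28 peaks spanned the start. The whole of exon 1 was covered in 23 of 28 members in siControl and in 22 of 28 in siAATF. The midpoint of the peak was a median of 68.0 bp from the start in siControl and 81.5 bp in siAATF. No values over all coding genes stand beside these positions either, and a promoter peak had to lie near a start to be counted. MTIF3 stood apart, with its siControl peak centred 404 bp inside the gene. The intronic site printed above lay within that peak, 128 bp from its midpoint.

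**Figure D3:**
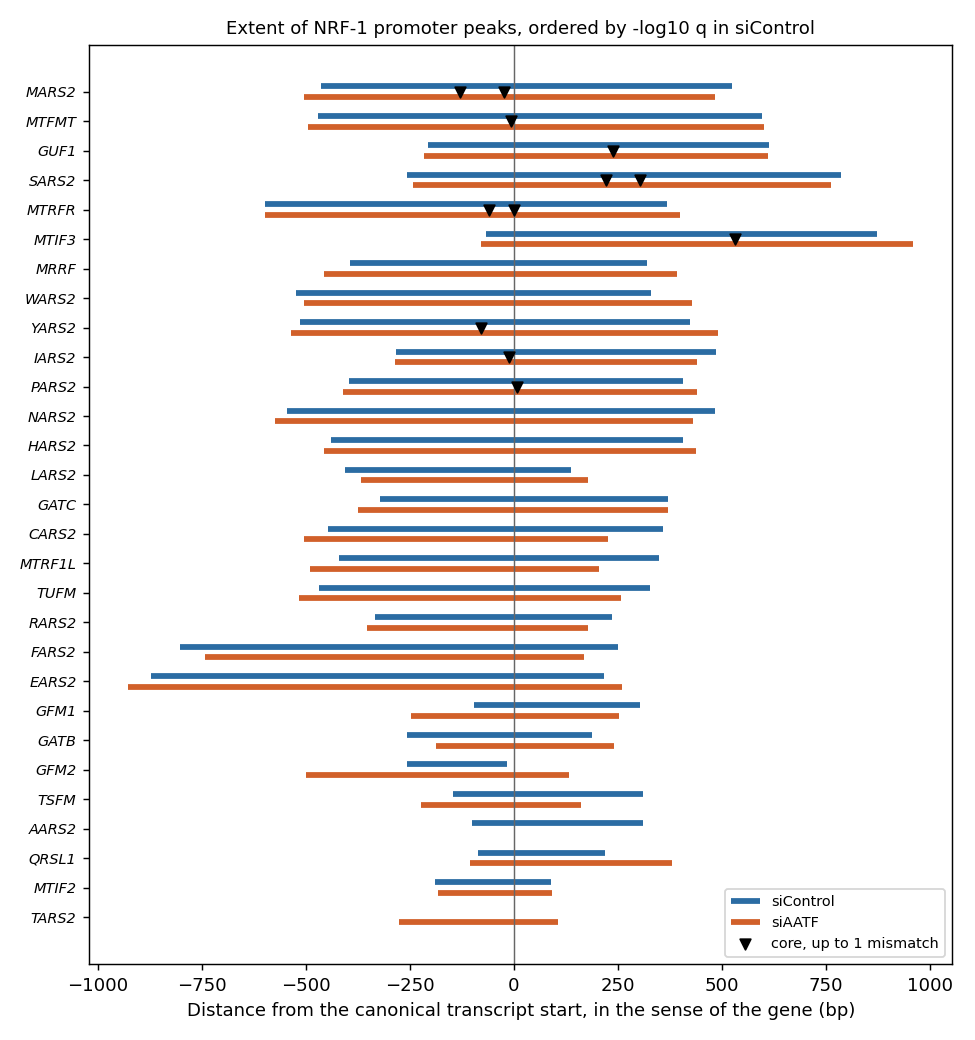
Extent of each member's promoter peak in siControl (blue) and siAATF (orange) in bp from the canonical transcript start, negative values being upstream, with triangles at sites of the core with up to 1 mismatch and members ordered by −log10 q in siControl. The triangles are confined to the upper part of the plot, and the narrow peaks at the foot belong to the weak members.

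The core was then set against the strength of the peaks. It was present with up to 1 mismatch in the siControl peak of 9 of 28 members (32.1%, exact 95% interval 15.9 to 52.4), beside 23.9% of coding genes with a peak, and as an exact match in 1 of 28, beside 3.88%. In a window of fixed length, 250 bp on either side of the canonical start, it was present in 9 of 31 members, beside 11.6% of coding genes. That second set of 9 includes VARS2 and leaves out MTIF3. In siControl the 9 members with the core in their peak had a −log10 q from 42.1 to 73.5, with a median of 63.0. The 19 members without it had values from 1.84 to 56.2, with a median of 13.7, and only WARS2 and MRRF reached the range of the others. In siAATF the values were 43.4 to 69.7 with the core and 2.29 to 52.9 without it, and again only WARS2 and MRRF reached that range. Over all coding genes with a promoter peak the medians in siControl were 66.4 with the core and 12.3 without it.

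Fold enrichment separated the members less than −log10 q did. In siControl the fold enrichment ran from 7.65 to 10.3 with the core and from 3.68 to 10.5 without it. Peaks with the core were wider, at a median of 942 bp against 692 bp. The change of rank ran from −5.33 to 2.82 points over the 9 members with the core and from −27.0 to 15.3 over the 18 others with a peak in both lists. All 9 ranked at 75.3 or more in siControl. Over coding genes with a peak in both lists it ran from −68.9 to 36.7 points with the core and from −72.6 to 57.5 without it. Changes beyond 20 points numbered 38 of 2881 such genes with the core and 733 of 8897 without it. These are descriptions over genes within 1 list per condition.

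**Figure D4:**
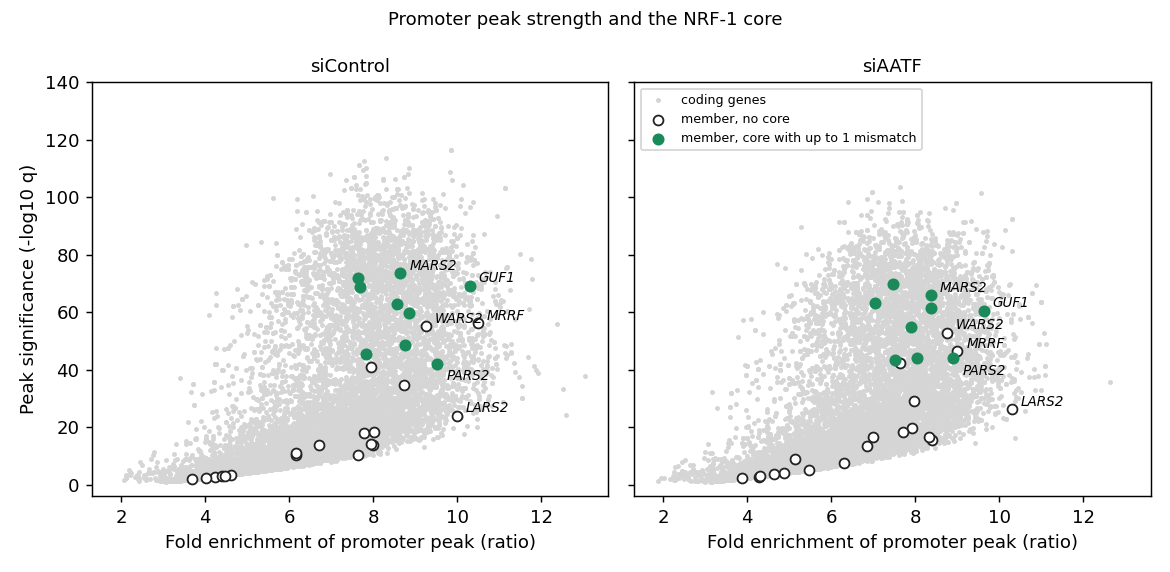
Significance of the promoter peak (−log10 q, vertical axis) against its fold enrichment (horizontal axis) in siControl and in siAATF, for coding genes (grey), members with the core at up to 1 mismatch (green) and members without it (open circles). In siControl all 9 green points lie at a −log10 q of 42.1 or more, and WARS2 and MRRF are the only open circles in that range.

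The 4 members without the core whose siControl peaks had the highest −log10 q were looked at for single arms, after their values had been seen. Searched on both strands as GCGCA and its reverse complement TGCGC, arms numbered 2 in the MRRF peak, 3 in WARS2, 5 in NARS2 and 4 in HARS2. Overlapping matches were each counted. All 3 of WARS2 lie in the stretch printed below, where the capitalised GCGCA overlaps a TGCGC. The median was 2 over members with a siControl peak and 3 over coding genes with one. The arm nearest the midpoint of each peak is shown in capitals, for comparison with the cores above.
MRRF, chr9:125027111-125027140, plus strand: acgcgttaagccTGCGCcgcctcctggctt
WARS2, chr1:119683358-119683387, minus strand: tagcggctgcgctGCGCAgcctggaggccc
NARS2, chr11:78285846-78285875, minus strand: tggtaggagtggtTGCGCgtgttgcggccc
HARS2, chr5:140071090-140071119, plus strand: tgactagtgaggTGCGCaaacgcccgagtt
In MRRF and WARS2 the arm lay 1 bp or less from the midpoint of the peak and upstream of the start, and in NARS2 and HARS2 it lay 79 and 80 bp away, in the 5′ untranslated region.

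Many members had a start of another coding gene close by on the opposite strand. Any annotated coding start counted, and whether the genes of a pair point away from each other was not checked. A coding start on the opposite strand within 1 kb was present for 12 of 31 members (38.7%), beside 15.6% of coding genes, and in 8 of the 12 the starts were at most 100 bp apart. Such a start was also present for 32 of 78 mitochondrial ribosomal protein genes, 9 of 24 genes for maturation of mitochondrial tRNAs and mRNAs and 6 of 20 cytosolic synthetase genes. The closest pair was EARS2 and UBFD1, 4 bp apart, and the widest was MTRFR and MPHOSPH9, 266 bp apart. HARS2 is paired with HARS1, its cytosolic counterpart, at 37 bp, and both histidine enzymes had the same peak. SARS2 is paired with MRPS12, a gene for a mitochondrial ribosomal protein. The others are FARS2 with LYRM4, RARS2 with ORC3, QRSL1 with RTN4IP1, GATC with TRIAP1, TUFM with SH2B1, GUF1 with YIPF7, MRRF with RBM18 and GFM2 with NSA2. All 12 members with such a partner had a peak in both lists, as did 15 of the 19 without one. Of the 3084 coding genes with such a start, 841 had a siControl peak with the core and 1919 had one without it. A siControl peak was therefore usual at such promoters and not peculiar to members. The share with a peak in both lists was not computed for these coding genes. Members with a partner had a median siControl rank of 77.9, against 78.6 for members without one. A peak at these promoters cannot be given to one gene of the pair. The base composition around the start was a median of 61.5% GC for members and 64.7% for coding genes, with an observed to expected CpG ratio of 0.821 and 0.779.

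Related gene lists are given for comparison, without a test of the differences. Of 78 mitochondrial ribosomal protein genes, 72 carried a promoter peak under siControl and 72 under siAATF, with a median rank of 67.5 in siControl and 62.7 in siAATF. Of 20 cytosolic tRNA synthetase genes, 19 had one under siControl and 18 under siAATF, with median ranks of 57.5 and 65.8. Of 24 genes for the maturation of mitochondrial tRNAs and mRNAs, the counts were 20 and 21 and the median ranks 57.6 and 61.9. The core with up to 1 mismatch was in the siControl peak of 17 of 72, 3 of 19 and 5 of 20 genes of these lists, respectively. Changes of rank beyond 20 points numbered 6 of 71 for ribosomal proteins, 2 of 18 for cytosolic synthetases and 1 of 19 for the maturation genes. The median changes were −1.42, −0.422 and −0.573 points.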

How the data were processed

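NRF-1 was profiled by ChIPmentation, in which Tn5 transposase adds the adapters during ChIP, in 1 siControl and 1 siAATF sample of U251 cells. Per the study's methods, the authors aligned reads to hg19 with Bowtie2 and called broad peaks with MACS2 under default settings of an ATAC-seq pipeline, so peak edges may differ from those of a ChIP-seq pipeline. No input was named. The methods speak of ChIP in duplicate, and whether the lists pool replicates was not stated. The fold enrichment, a ratio to the local background, and the significance of each peak as −log10 p and −log10 q were deposited by the authors, and the score deposited beside them is a display value that was not used. Start and end were converted to 1-based coordinates. Depth was unknown, so its effect on the number of peaks could not be judged.

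Python 3.11.15, numpy 2.4.6, pandas 2.3.3 and scipy 1.17.1 were used with the GRCh37 assembly and GENCODE release 44 lifted to it. All 31 symbols matched. A promoter peak overlapped the window by at least 1 base. Shares have exact Clopper-Pearson 95% intervals, and no test was run. The search and ranking steps were checked on simulated data with known answers. The members and gene lists were chosen with earlier results of these data known. Ribosomal protein genes were taken by symbol. Values were given for members with a peak in fewer than both lists, the 5 highest and 5 lowest siControl ranks, changes over 20 points, exact cores and elongation factors, and the other genes that are named, also in the closing section, were added after their values were seen. Windows, thresholds, ranking, peak choice and core settings were varied.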

Additional observations from a re-analysis of the deposited data

How the results depend on the processing

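No paired analysis was possible because each condition had a single list. Of 41 values recomputed over 7 results, 34 were classed as the same and 7 moved. Shares were classed by their counting interval, and the number of members beyond 20 points by a limit of 1.5 times. Medians were classed by an interval for the median, taken from the ordered values of the members. With few members of widely spread values that interval was wide, and all medians were classed as the same. That class does not mean a small change. It includes the siControl median rank of members, which was 78.6 by fold enrichment and 68.5 by −log10 q. When peaks under a −log10 q of 5 were dropped, the share of members with a promoter peak was 71.0% for siControl and 74.2% for siAATF, beside 51.4% of coding genes in each, and 2 of 22 members (FARS2 and GFM1) differed by more than 20 points, beside 11.0% of coding genes. With the 10000 strongest peaks of each list the shares were 71.0% and 71.0%, beside 44.1% and 43.5% of coding genes. Ranked by −log10 q, 0 of 27 members differed by more than 20 points, beside 2.59% of coding genes, and the median change was 2.11 points, beside 0.466. The exact core was in 3.57% of members' siControl peaks, beside 3.88% of coding genes. Leaving out coding genes of the peak-free stretch of chromosome 6, chosen after the data were seen, gave 93.3% of members in each list, beside 61.6% of coding genes in siControl and 61.1% in siAATF. Unknown depth limits what an absent peak can show.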

Other observations

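The mitochondrial synthetases were also set beside the cytosolic enzyme for the same amino acid. Both enzymes had a promoter peak for 14 amino acid pairs in siControl. The mitochondrial gene ranked higher in 9 of them, the cytosolic gene in 4, and 1 pair, HARS2 and HARS1, had a single peak between them. In siAATF the mitochondrial gene ranked higher in 8 of 13 pairs and the cytosolic gene in 4, beside the same shared peak. The bifunctional glutamate and proline enzyme of the cytosol stood in 2 of the pairs, with EARS2 and with PARS2. The pair with PARS2 was close in siControl, at 95.5 against 96.0. FARS2 was set against FARSA and FARSB, the genes of the cytosolic phenylalanine enzyme, which were given a single rank. The widest differences in siControl were 88.0 for MARS2 against 17.8 for its cytosolic counterpart, and 22.6 for AARS2 against 91.7. For valine neither gene had a peak, and the starts of both lie in the peak-free stretch of chromosome 6.

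CARS2 had a second siControl peak at another coding start, 29.1 kb from the canonical one (chr13:111329278-111329492), with a rank of 44.7 and a −log10 q of 5.04, and no counterpart at a CARS2 promoter in siAATF. The peak-free stretch of chromosome 6 held 176 coding genes with a canonical start. The core with up to 1 mismatch lay within 250 bp of that start in 13 of them (7.39%), beside 11.6% of all coding genes. It was exact in 2 of the 13, VARS2 being 1 of these.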
